A study of Mus musculus with 14 samples.

Results

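The 40 genes described here encode the machinery that copies chromosomal DNA. They were picked by gene symbol for their known function: 6 subunits of the origin recognition complex, 3 genes of origin licensing and its inhibition, the 6 subunits of the MCM2-7 helicase, 6 factors of helicase activation, 6 primase and polymerase subunits, 6 genes of the sliding clamp and its loader, 2 subunits of the single-strand binding protein, 2 enzymes of Okazaki fragment maturation and 3 enzymes of nucleotide supply. All 40 symbols were found among the 48363 genes with values in the RNA-seq table. All 40 also passed the filter on low values (at least 10 normalized counts in 2 libraries) and were among the 16241 genes tested.

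The study asked how mouse regulatory T cells (Tregs) change without the microRNAs miR-15 and miR-16, and how such cells compare with Tregs of normal mice that carry little CD25, the IL-2 receptor α chain encoded by Il2ra. It held 14 libraries. There were 5 of miR-15/16 cKO Tregs, from mice with both floxed miR-15/16 clusters and Cre recombinase expressed from the Foxp3 locus, and 4 of WT Tregs, which had unfloxed miR-15/16 alleles and the same Cre. A further 3 libraries of CD25hi and 2 of CD25lo Tregs were sorted as bins of WT Tregs. In every group the cells were live CD4+ FOXP3-YFP+ Tregs sorted from spleen and peripheral lymph nodes of untreated mice, described as biological replicates. The Cre driver is expressed with Foxp3, so by design the deletion in the cKO mice was directed at the whole Treg compartment. The age of the mice behind each library is not given in the sources used here. The labels do not say which CD25hi and CD25lo libraries came from the same mouse.

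DNA replication starts in 2 separated steps. In G1, the origin recognition complex, CDC6 and CDT1 load the inactive MCM2-7 helicase onto DNA, a step that geminin blocks later in the cycle. In S phase, CDC45, the GINS complex and MCM10 turn the loaded helicase into an active fork, where primase and the polymerases copy both strands, the clamp PCNA holds the polymerases on DNA, and FEN1 and DNA ligase 1 join the lagging strand. Many of these genes are transcribed at the G1 to S transition under E2F transcription factors and are low in resting lymphocytes.

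The deleted microRNAs share their seed, bases 2 to 8, shown in capitals because it decides which transcripts they can pair with (mature sequences from the RefSeq annotation of GRCm38.p6).
miR-15a-5p: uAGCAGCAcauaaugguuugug
miR-15b-5p: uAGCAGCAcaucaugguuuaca
miR-16-5p: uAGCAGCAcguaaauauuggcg
MiR-15a lies at chr14:61632075-61632096 on the minus strand, and miR-15b at chr3:69009775-69009796 on the plus strand. The 2 copies of miR-16 lie beside them, at chr14:61631936-61631957 (minus) and chr3:69009918-69009939 (plus).

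A match to this seed (TGCTGCTA on the transcript strand, or its first or last 7 letters) was found in the longest annotated 3′ UTR of 7 of the 40 genes (17.5%), compared with 27.8% of the 12731 genes tested that have an annotated 3′ UTR. Those 7 genes are Orc2, Cdc6, Mcm5, Gins2, Rfc1, Rfc5 and Rpa1. The 8-base match occurred in Rfc1, the large subunit of the clamp loader, and in Gins2, a subunit of the GINS complex. These 2 sites are printed with their flanks because they are the longest matches in the set, with the match in capitals.
Rfc1, 3′ UTR position 713: cctgaccacatTGCTGCTAtaggtagtctg
Gins2, 3′ UTR position 675: agagtacagacTGCTGCTAtaagtggctaa
A match is a description of these letters and not of binding.

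E2F motifs were searched in the promoters (250 bases before to 50 after the start, RefSeq, GRCm38.p6) as TTTCCCGC, TTTGGCGC, TTTCGCGC or TTTGCCGC on either strand. Of the 40 genes, 32 had a promoter in the table, and 13 of these (40.6%) held a motif: Mcm3, Mcm5, Mcm6, Mcm7, Orc1, Orc3, Cdt1, Cdc6, Rfc3, Lig1, Pold1, Gins3 and Pola1. The same search found a motif in 4.53% of the 10718 genes tested that have a promoter in the table and in 2.26% of all 32851 promoters. Matches can overlap each other, as the forward and reverse motifs in Mcm5 and Mcm6 do. The windows below, 1 for each gene, are those of the MCM2-7 subunits with a motif and of Orc1 and Cdt1. None of these genes was called in the main limma fit described further on. The motif is in capitals, and the number is the distance of its first base from the start.
Mcm3, 19: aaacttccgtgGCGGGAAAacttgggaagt
Mcm5, -153: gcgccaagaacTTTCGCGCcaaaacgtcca
Mcm6, -110: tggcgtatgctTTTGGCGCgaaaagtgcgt
Mcm7, 16: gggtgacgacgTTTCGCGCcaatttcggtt
Orc1, -27: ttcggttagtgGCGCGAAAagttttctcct
Cdt1, 32: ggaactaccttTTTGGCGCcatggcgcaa
The Mcm3 window lies at chr1:20820275-20820304 (minus), the Mcm5 window at chr8:75109345-75109374 (plus), the Mcm6 window at chr1:128359797-128359826 (minus), the Mcm7 window at chr5:138171849-138171878 (minus), the Orc1 window at chr4:108579416-108579445 (plus) and the Cdt1 window at chr8:122568036-122568064 (plus).

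Libraries held 30055573 to 35226685 reads in genes. Fewer genes had a read in CD25hi replicate 2 (13723) and WT replicate 2 (13920) than in the other libraries, where the number reached 18200. The Treg markers Foxp3, Cd4 and Cd3e were abundant in all 14 libraries, with Foxp3 at 14545.5 to 24370.2 normalized counts. WT replicate 4 stood apart from its group. Its correlation over 5830 abundant genes (log2 scale, sex chromosomes included) was 0.927 to 0.957 with the other WT libraries. With the sorted libraries it was 0.97 to 0.983 for CD25hi and 0.978 and 0.974 for CD25lo. Ctla4 in WT replicate 4 was at 13255.5 normalized counts, against 32969.2 to 36409.8 in the other WT libraries. WT replicate 3 correlated at 0.972 to 0.98 with the cKO libraries and at 0.927 to 0.964 with the other WT libraries. Il2ra, the gene of the sorted surface marker, fell by 1.43 on the log2 scale in CD25lo compared with CD25hi Tregs and fell by 0.75 in cKO compared with WT Tregs. Of the 6 Treg markers, Foxp3 (-0.57, adjusted p = 0.00163, limma) and Ikzf2 (-0.36, adjusted p = 0.0263) also fell in CD25lo Tregs, and Ikzf2 rose in cKO Tregs (0.25, adjusted p = 0.0205). No library had a read in any of the 4 miR-15/16 hairpin genes, and the deletion cannot be checked on them. Dleu2, the host transcript of miR-15a and miR-16-1, was at 2121.4 to 2712.6 normalized counts in cKO Tregs and at 86.3 to 1240.9 in all other libraries. All cKO libraries and WT replicate 3 were female by Xist and Y-linked genes, and the other libraries were male, so sex differed between the bulk groups.

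The replication genes spanned a wide range of levels. Per kilobase of the principal transcript, and averaged over the 14 libraries, Mcm6 was at 1959 normalized counts per kb, the clamp Pcna at 1649, the single-strand binding subunit Rpa1 at 1244 and Mcm4 at 1189. At the other end stood the GINS subunit Gins2 (49.3 per kb), Mcm10 (45.4 per kb) and Orc1 (18 per kb). Subunits that form 1 complex were not at equal levels. Within MCM2-7 the highest subunit, Mcm6, was at 2.81 times the level of the lowest, Mcm7, whereas within the origin recognition complex Orc3 (953.8 per kb) was at 53.0 times the level of Orc1. The ratios and the order depend on the length used. Per kilobase of all annotated exons, Orc3 was at 360.3 and Orc1 at 15.6. On that scale the highest genes were Mcm6 (1222), Mcm4 (1189), Rpa1 (1133) and Pcna (1043).

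**Figure D1:**
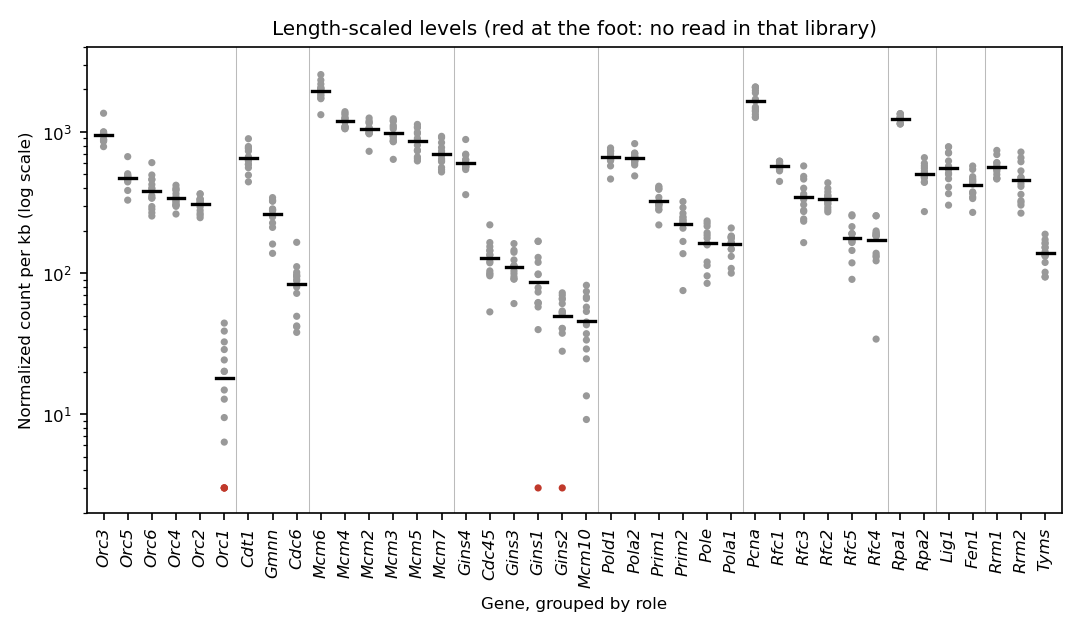
Level of each replication gene in each of the 14 libraries (dots) and its mean (bar), in normalized counts per kilobase of the principal transcript on a log axis, grouped by role. Mcm6 has the highest mean (1959 per kb) and Orc1 the lowest (18 per kb), and the red dots at the foot mark Orc1, Gins1 and Gins2 in libraries without a read.

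Genes with low levels also varied most between libraries. The coefficient of variation over the 14 libraries had a median of 18.9% across the 40 genes. It was smallest for Rpa1 (6.1%), Rfc1 (8.24%) and Mcm4 (9.87%), and largest for Orc1 (80.2%), Gins1 (54.5%), Mcm10 (49.4%) and Cdc6 (41.0%). No read was seen for Orc1 in WT replicates 2 and 4 and CD25lo replicate 2, nor for Gins1 and Gins2 in CD25hi replicate 2, and the other 555 of the 560 values were above 0. For these genes a group mean on a log scale rests on the libraries at 0.

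**Figure D2:**
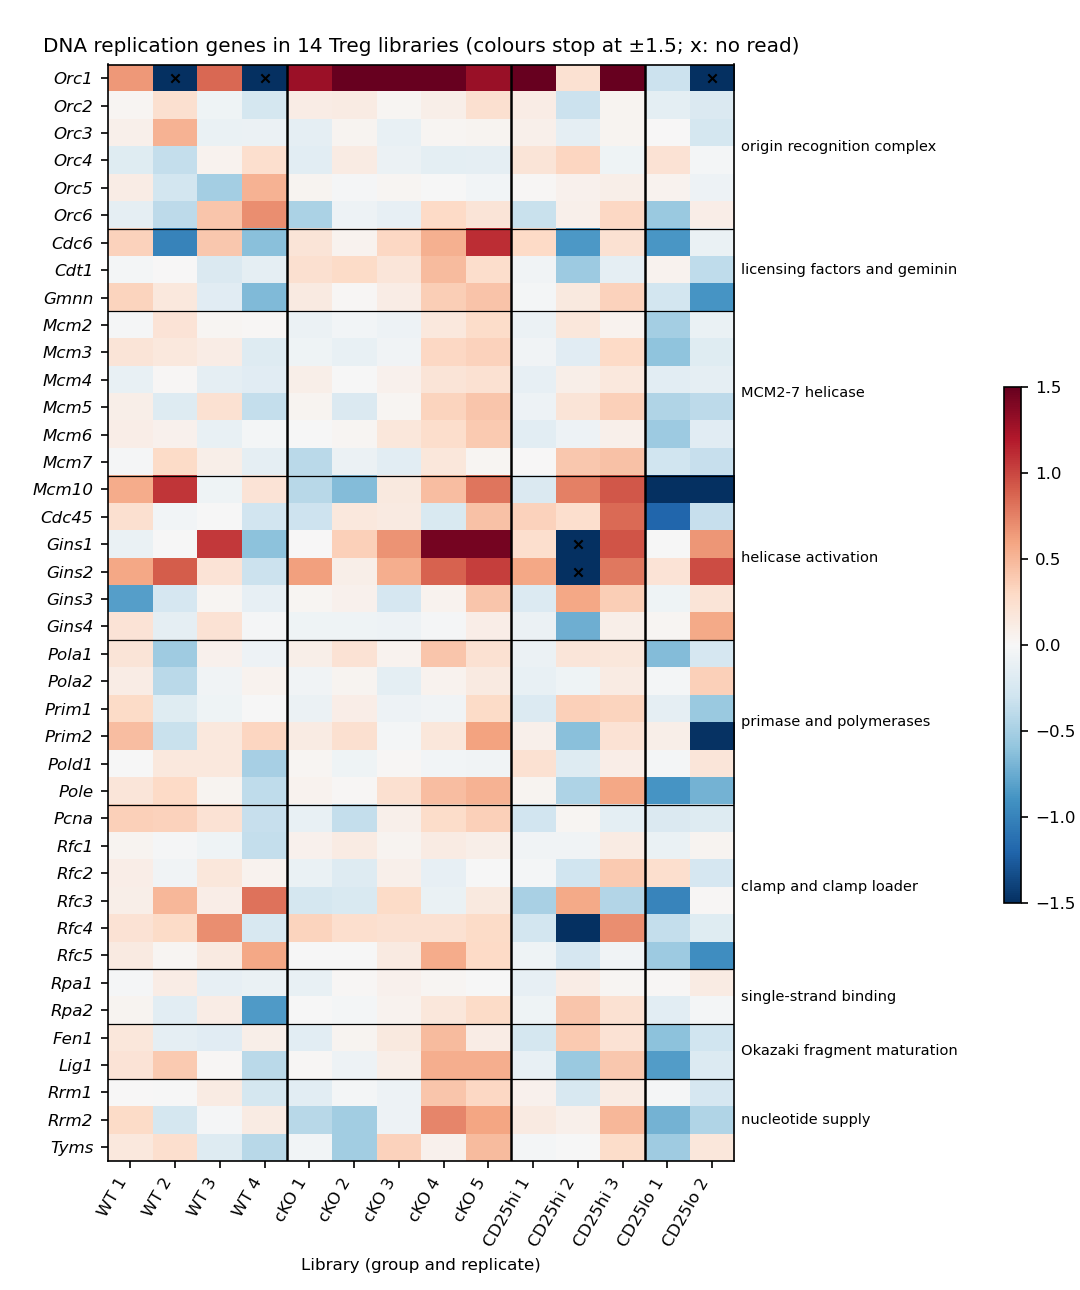
Level of the 40 genes (rows, grouped by role) in the 14 libraries (columns), as log2(normalized count + 1) minus the mean of the gene over all libraries, red above and blue below. Crosses mark the 5 values without a read, colours stop at 1.5 in either direction, and the CD25lo columns are blue for all MCM2-7 subunits while cKO replicates 4 and 5 are red for most genes.

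In cKO compared with WT Tregs, no replication gene was called. Of all genes tested, 3.52% were called in this comparison at an adjusted p under 0.05 (limma-trend, Benjamini-Hochberg over all genes tested), 2.04% as higher and 1.48% as lower. Of all genes tested, 56.9% had a positive and 43.0% a negative log2 fold change. The count was 0 of 40 with limma and with edgeR (3.21% of all genes tested). DESeq2 called 1 gene, Cdt1, against 8.49% of the 10572 genes to which it gave an adjusted p. With the immediate early gene level as a term the count was 1 of 40 (Orc1, against 5.44%), and with the replicate number as a block 0 of 40 (against 0.523%). At an unadjusted p under 0.05, 4 genes were higher in cKO Tregs (Orc1, Cdt1, Mcm4 and Rfc1) and 0 were lower, which is 10% of the 40 against 16.1% of all genes tested (9.57% higher and 6.56% lower). The log2 fold change was positive for 29 of the 40 genes and negative for 11, with a median of 0.07, and the median of all genes tested was 0.05. Among the 10300 genes with a mean of at least 100 normalized counts, a level that 38 of the 40 genes reached, the median was 0.00458 and 50.8% were positive. The 95% interval of the fold change lay within 1.5-fold in either direction for 23 of the 40 genes and within 2-fold for 35. All cKO libraries were above all WT libraries for Orc1, Cdt1 and Rfc1 (7.5% of the 40 genes, against 8.54% of all genes tested whose groups did not overlap, 4.92% higher and 3.62% lower), and no replication gene was lower in this way. The median was 0.04 without cKO replicate 5, 0.14 without cKO replicate 1 and 0.14 without WT replicate 1.

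In CD25lo compared with CD25hi Tregs, the helicase activation factor Mcm10 fell and no replication gene rose. This comparison called 1.62% of all genes tested, 0.610% as higher and 1.01% as lower. The log2 fold change was negative for 32 of the 40 genes and positive for 8, with a median of -0.27, where the median of all genes tested was 0, with 49.4% of them positive and 48.0% negative. At an unadjusted p under 0.05, 15 genes were lower in CD25lo Tregs and 1 was higher. The 15 lower genes are 37.5% of the 40, against 6.95% of all genes tested (13.5% in either direction, 6.51% higher) and 8.91% of the 10300 genes with a mean of at least 100 normalized counts, a level that 38 of the replication genes reached. Both CD25lo libraries were below all 3 CD25hi libraries for 15 genes and above them for 0 genes. Among all genes tested, the groups did not overlap in 24.5%, with CD25lo higher in 12.9% and lower in 11.6%. DESeq2 called 5 genes, all lower (Mcm10, Mcm7, Mcm5, Cdc45 and Pole), against 4.61% of the 14605 genes to which it gave an adjusted p. The 1 gene that edgeR called was Mcm10, against 1.37% of all genes tested. With the immediate early level as a term 4 were called (Mcm10, Mcm7, Mcm5 and Pole, against 2.76%), and with the replicate number as a block 0 (against 0.105%). Leaving out CD25hi replicate 3, CD25lo replicate 1 or CD25lo replicate 2 brought the count of called genes to 0, and the number lower at an unadjusted p under 0.05 to 9, 9 and 13. Without CD25hi replicate 1 or without WT replicate 4, 2 genes were called (Mcm10 and Mcm7), and without CD25hi replicate 2 the 1 gene called was Pole. The median was -0.17 without CD25lo replicate 1 and -0.175 without CD25hi replicate 3.

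**Figure D3:**
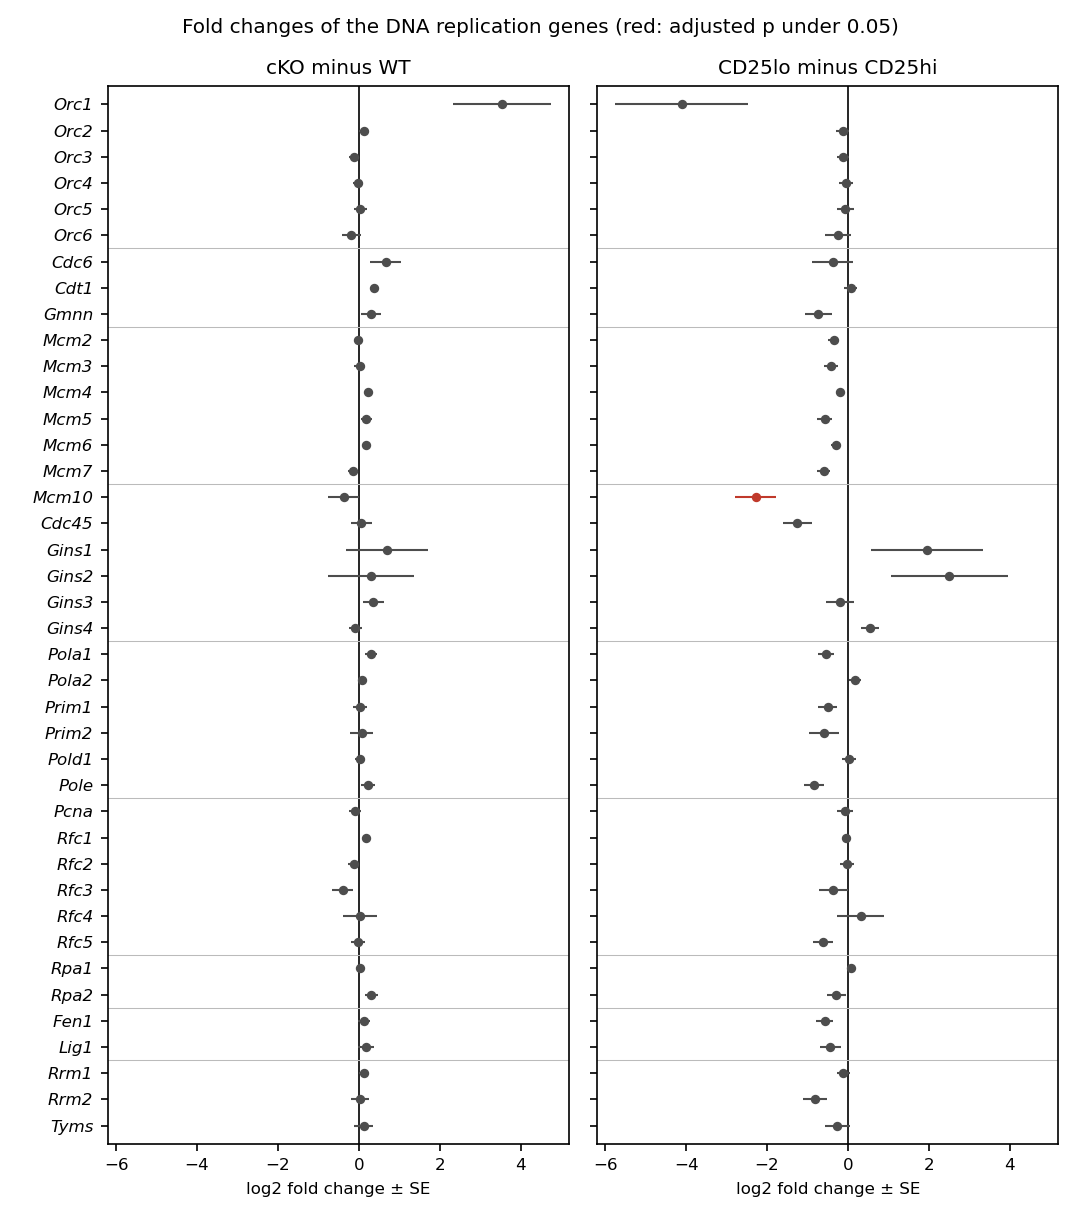
log2 fold change with its standard error (limma) for the 40 replication genes, cKO minus WT on the left and CD25lo minus CD25hi on the right, with thin lines between roles. Most points on the left lie near 0, 32 of 40 on the right lie below 0, and Mcm10 on the right is the 1 point with an adjusted p under 0.05.

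The 2 effects were also compared with each other, as the cKO minus WT effect less the CD25lo minus CD25hi effect. No replication gene passed the test of this difference, which called 1.03% of all genes tested (limma). At an unadjusted p under 0.05, 13 of the 40 genes had a higher and 1 a lower effect in cKO Tregs (35% of the 40 in either direction, against 13.8% of all genes tested). The difference was positive for all 6 MCM2-7 subunits, from 0.34 for Mcm2 to 0.76 for Mcm5, and for 54.0% of all genes tested. This sign is not a separate result for the 6 subunits. Their CD25lo effects, -0.60 to -0.19, enter the difference with the sign reversed, and their cKO effects alone were -0.15 to 0.21. DESeq2 called the difference for Mcm5, Pole and Mcm10 (3.72% of the 15200 genes to which it gave an adjusted p). With edgeR the difference was called for 0 of the 40 (1.08% of all genes tested). The fit with the immediate early level as a term called it for Mcm5, Pole and Orc1 (2.69%).

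The origin recognition complex marks the sites where replication can begin. In CD25lo Tregs its 6 subunits had log2 fold changes of -0.06 or below, and in cKO Tregs 3 were positive and 3 negative, with none called. Orc1 (chr4:108579423-108614833, GRCm38, plus strand), the subunit whose level follows the cell cycle, was at 60.5, 86.5, 73, 98 and 60.7 normalized counts in cKO replicates 1 to 5. In the WT libraries it was at 38.5, 0, 44.7 and 0. The sorted libraries had 133.2, 28.5 and 116.9 in CD25hi and 19.1 and 0 in CD25lo Tregs. Every cKO library was thus above every WT library, and both CD25lo libraries were below all CD25hi libraries. The libraries without an Orc1 read had few genes with a read: 13920 and 14525 in WT replicates 2 and 4 and 14500 in CD25lo replicate 2. CD25hi replicate 2, the lowest of its group for Orc1, had 13723. The cKO libraries had 16697 to 18200, and WT replicates 1 and 3 had 17198 and 17043. The part of the number of genes detected in the Orc1 differences was not tested. On the log2(normalized count + 1) scale Orc1 differed by 3.53 ± 1.21 (SE) in cKO, with an adjusted p of 0.129 (limma). The difference in CD25lo Tregs was -4.11 ± 1.65 (SE), with an adjusted p of 0.263, so it passed neither test. These sizes rest on the 3 libraries without a read: the cKO value was 2.38 with a pseudocount of 5, 1.86 with edgeR and 0.72 with a term for sex. With the immediate early gene level as a term it was 3.85 and passed (adjusted p = 0.0442, against 0.0442 to 0.999 over all settings). Orc2 to Orc6 differed by -0.18 to 0.13 in cKO Tregs and by -0.24 to -0.06 in CD25lo Tregs.

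Cdt1 and Cdc6 load the helicase, and geminin (Gmnn) inhibits CDT1. Cdt1 (chr8:122568015-122573554, plus strand) was at 1665.9, 1726.1, 1602.1, 1960.4 and 1694.7 normalized counts in cKO replicates 1 to 5 and at 1389.0, 1415.3, 1220.9 and 1287.7 in the WT libraries. The lowest cKO library was above the highest WT library. The group means were 1730 ± 137 (SD, n = 5) and 1328 ± 90.3 (SD, n = 4), a log2 fold change of 0.38 with a 95% interval of 0.13 to 0.63, which missed the threshold in limma (adjusted p = 0.087). It passed with DESeq2 (adjusted p = 0.0452) in a fit of only these groups (adjusted p = 0.0302) and without CD25hi replicate 2 (adjusted p = 0.0427), within 0.0302 to 0.624 over all settings, and the difference was positive under each of them. The highest value of 0.624 came with a term for sex, where the log2 fold change was 0.50. In the sorted Tregs Cdt1 was at 1363.2, 969.7 and 1291.2 in CD25hi and at 1461.2 and 1081.9 in CD25lo, with overlapping groups and a log2 fold change of 0.07 (standard error 0.16). Cdc6 differed by 0.66 in cKO (standard error 0.38) and Gmnn by 0.30 (standard error 0.25), and in CD25lo Tregs the same genes differed by -0.38 (standard error 0.51) and -0.73 (standard error 0.34), none of them past the threshold.

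MCM2-7 is the ring that becomes the replicative helicase. All 6 subunits had a negative log2 fold change in CD25lo Tregs, from -0.60 for Mcm7 to -0.19 for Mcm4. For all 6 both CD25lo libraries were below all 3 CD25hi libraries, as was so for 11.6% of all genes tested. At an unadjusted p under 0.05, 5 of the 6 were lower, against 6.95% of all genes tested, and 0 of the 6 were called with limma. Mcm7 (chr5:138164583-138172422, minus strand) was at 2040.5, 2697.2 and 2757.3 normalized counts in CD25hi and at 1659.4 and 1600.7 in CD25lo Tregs. Its fold change of 0.658, with a 95% interval of 0.519 to 0.835, had an adjusted p of 0.0745. In the bulk libraries Mcm7 was at 1542.0, 1908.4, 1824.0, 2297.5 and 2082.8 in cKO and at 2019.0, 2489.8, 2171.4 and 1859.1 in WT Tregs. These groups overlapped, with a log2 fold change of -0.15 (standard error 0.12). The exons of Mcm7 overlap those of other genes (Ap4m1, Cops6, Mir25 and Mir93) over 12.6% of their length, 3.89% on the same strand, and the strand setting of the counting is not given in the sources used here. In cKO Tregs the other 5 subunits differed by -0.01 to 0.21, and the upper end belonged to Mcm4 (standard error 0.07, adjusted p = 0.134). The summed level of the 6 subunits was 22879 ± 2657 (SD, n = 5) in cKO, 21319 ± 1290 (SD, n = 4) in WT, 22209 ± 2255 (SD, n = 3) in CD25hi Tregs. In CD25lo Tregs it was 17176 ± 1928 (SD, n = 2).

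Helicase activation held the called gene, and in CD25lo Tregs 3 of its 6 genes were negative and 3 positive. Mcm10 (chr2:4989714-5012791, minus strand), which the active helicase needs to leave the origin, was at 163.2, 320.9 and 360.5 normalized counts in CD25hi and at 44.6 and 65.6 in CD25lo Tregs. Both CD25lo values were also below those of the bulk libraries, which had 141.0, 120.0, 209.3, 260.1 and 329.5 in cKO and 279.1, 398.6, 180.9 and 218.9 in WT Tregs. Mcm10 fell to 0.206 times its CD25hi level (95% interval 0.0985 to 0.431), which is -2.28 ± 0.51 (SE) on the log2 scale with an adjusted p of 0.0263 (limma). Its direction was the same in each of the settings tried, and its adjusted p ran from 0.000562 with DESeq2 to 0.308 in a fit of only the sorted groups. Without CD25hi replicate 2, CD25hi replicate 3, CD25lo replicate 1 or CD25lo replicate 2 the adjusted p was 0.0742, 0.0971, 0.146 and 0.0893. In cKO Tregs Mcm10 differed by -0.38 (standard error 0.37), and the groups overlapped.

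Cdc45, which joins MCM2-7 and GINS in the active helicase, was also below in both CD25lo libraries, by -1.25 ± 0.36 (SE) on the log2 scale (adjusted p = 0.0888). The 4 GINS subunits did not share this sign. Gins3 differed by -0.19 and Gins4 by 0.54 (standard error 0.22, adjusted p = 0.27), and the values of 1.95 for Gins1 and 2.51 for Gins2 rest on CD25hi replicate 2, which had no read of either. In the other CD25hi libraries Gins1 was at 79.7 and 129.5 normalized counts and in CD25lo Tregs at 66.4 and 106.0, so that these ranges overlapped. In cKO Tregs, Cdc45 and the GINS subunits differed by -0.09 to 0.70, with none called. Gins2 shares 67.3% of its exon length with Gse1 on the other strand.

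**Figure D4:**
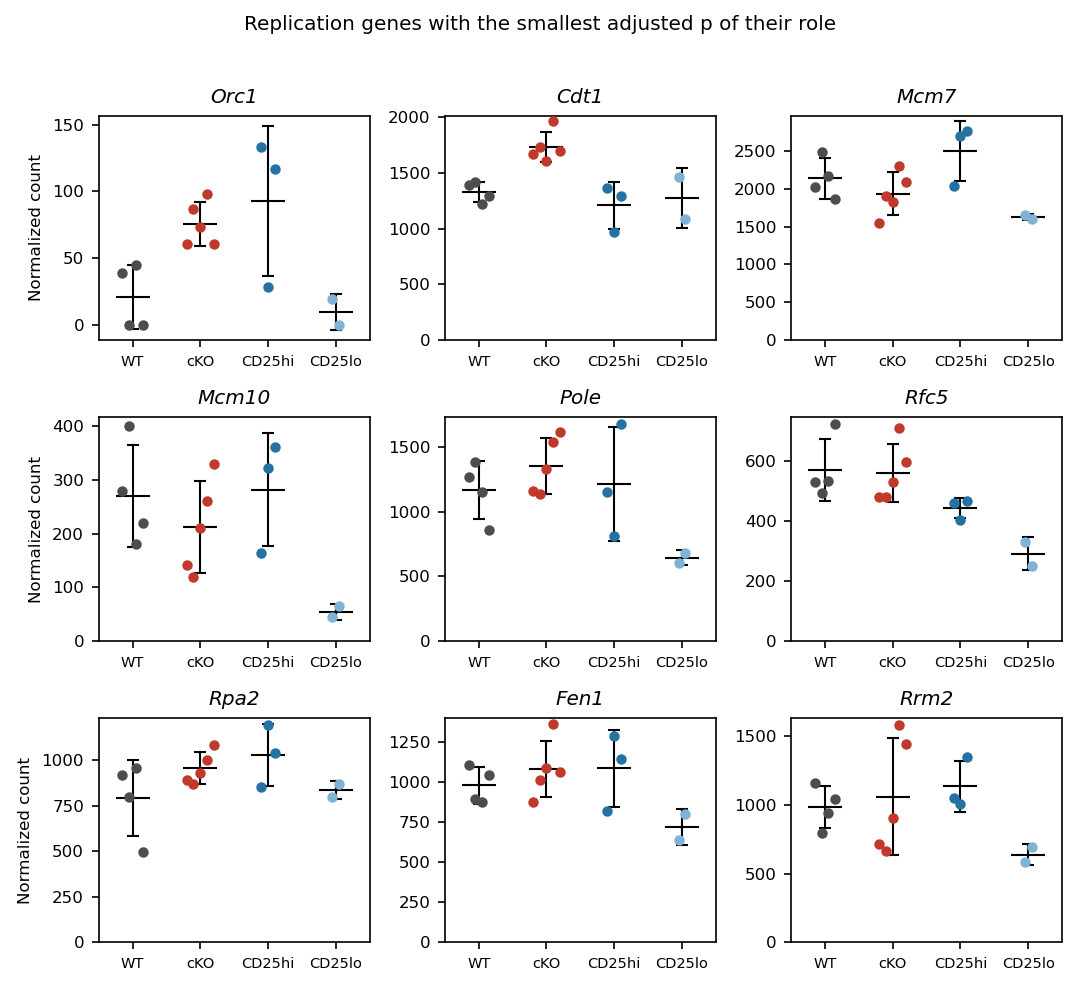
Normalized counts in each library (dots) for Mcm10, the gene called, and for the gene with the smallest adjusted p in each other role, by group, with the mean and SD (bars). For Cdt1 the 5 cKO values (1602.1 to 1960.4) lie above the 4 WT values (1220.9 to 1415.3), and for Mcm10 the 2 CD25lo values (44.6 and 65.6) lie below those of every other group.

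Primase and DNA polymerase α start each new strand, and polymerases δ and ε extend it. All 6 subunits measured had a positive log2 fold change in cKO Tregs, from 0.02 to 0.29, and 0 were called. In CD25lo Tregs 4 were negative and 2 positive. Pole (chr5:110286306-110337474, plus strand), the catalytic subunit of polymerase ε, was at 1150.2, 810.8 and 1675.9 normalized counts in CD25hi and at 605.6 and 684.3 in CD25lo Tregs. Both CD25lo libraries were lower, although the CD25hi libraries themselves differed by over 2-fold. The fold change was 0.555 (95% interval 0.387 to 0.796, adjusted p = 0.098). Pole was at 1157.9, 1133.7, 1326.6, 1538.3 and 1612.0 in cKO and at 1266.2, 1382.5, 1151.8 and 858.1 in WT Tregs, with a log2 fold change of 0.22 (standard error 0.18). The catalytic subunit of polymerase δ, Pold1, differed by 0.03 in either comparison (standard errors 0.12 and 0.16). Pola1, the catalytic subunit of polymerase α, differed by -0.54 in CD25lo Tregs (standard error 0.20, adjusted p = 0.229), and its partner Pola2 by 0.18 (standard error 0.16).

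The clamp and its loader had 5 negative and 1 positive log2 fold change in CD25lo Tregs, with a median of -0.05, and none was called. Pcna, a common marker of cycling cells, differed by -0.10 in cKO (standard error 0.15) and by -0.07 in CD25lo Tregs (standard error 0.20). The 95% interval of its fold was 0.755 to 1.16 in cKO and 0.711 to 1.28 in CD25lo Tregs. Rfc5 (chr5:117378103-117389047, minus strand), a small subunit of the loader, was at 460.6, 404.4 and 465.8 normalized counts in CD25hi and at 330.1 and 252.3 in CD25lo Tregs. Both CD25lo libraries were lower, by -0.62 ± 0.24 (SE) on the log2 scale, with an adjusted p of 0.253. It was at 481.5, 479.9, 530.5, 710.1 and 596.3 in cKO and at 532.1, 492.5, 532.7 and 723.5 in WT Tregs, with overlapping groups and a log2 fold change of -0.03. Rfc1, with the 8-base seed match, was at 2786.6 to 2952.8 in cKO and at 2119.2 to 2784.3 in WT Tregs. The lowest cKO library stood just above the highest WT library, and the log2 fold change of 0.19 (standard error 0.08) had an adjusted p of 0.269. Rfc2, Rfc3 and Rfc4 differed by -0.40 to 0.03 in cKO and by -0.36 to 0.31 in CD25lo Tregs.

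Replication protein A coats the unwound strand. Its large subunit Rpa1 was the steadiest of the 40 genes, at 5770.8 to 6845.8 normalized counts over all libraries. Rpa2 (chr4:132768332-132778752, plus strand) was at 892.1, 872.4, 928.5, 1004.2 and 1085.9 in cKO and at 921.5, 797.2, 960.7 and 494.3 in WT Tregs. In the sorted Tregs it was at 855.6, 1191.7 and 1041.9 in CD25hi and at 800.2 and 872.0 in CD25lo. Both pairs of groups overlapped, and the differences on the log2 scale were 0.31 ± 0.17 (SE, adjusted p = 0.384) and -0.29 ± 0.23 (SE, adjusted p = 0.625). The cKO value rests on WT replicate 4: it was 0.10 without that library, and -0.01 with a term for sex.

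FEN1 trims and DNA ligase 1 seals the fragments of the lagging strand. Fen1 (chr19:10199132-10204169, minus strand) was at 820.9, 1288.5 and 1143.3 normalized counts in CD25hi and at 638.3 and 800.3 in CD25lo Tregs. Both CD25lo libraries were lower, and the log2 fold change of -0.58 (standard error 0.21) had an adjusted p of 0.197. In cKO Tregs it was at 877.9, 1013.7, 1084.3, 1361.3 and 1061.8, and in WT Tregs at 1107.9, 891.1, 872.2 and 1045.2, with overlapping groups and a log2 fold change of 0.13. Because 84.2% of the exon length of Fen1 is shared with genes on the other strand, Gm10143 and Tmem258, its reads cannot be assigned with certainty. Lig1 differed by 0.17 in cKO (standard error 0.20) and by -0.43 in CD25lo Tregs (standard error 0.27).

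Ribonucleotide reductase (Rrm1 and Rrm2) and thymidylate synthase (Tyms) supply the nucleotides. Rrm2 (chr12:24708241-24714146, plus strand), the subunit whose protein is made in S phase, was at 713.3, 665.0, 902.3, 1580.3 and 1439.4 normalized counts in cKO and at 1161.0, 791.7, 943.4 and 1040.0 in WT Tregs. The cKO libraries fell on both sides of the WT range, with replicates 4 and 5 above it and replicates 1 and 2 below it, and the log2 fold change was 0.03 (standard error 0.22). In the sorted Tregs Rrm2 was at 1047.0, 1003.3 and 1349.2 in CD25hi and at 582.8 and 694.4 in CD25lo, with no overlap and a difference of -0.82 ± 0.30 (SE) on the log2 scale (adjusted p = 0.214). Rrm1 and Tyms differed by 0.13 and 0.11 in cKO and by -0.11 and -0.26 in CD25lo Tregs.

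The 40 genes made up 0.157% to 0.217% of the normalized counts of a library. Their summed level was 57425, 58200, 60812, 68500 and 69992 in cKO replicates 1 to 5 and 62348, 62405, 59673 and 54765 in WT replicates 1 to 4. It was 56994, 58999 and 66546 in CD25hi and 50188 and 54334 in CD25lo Tregs. The cKO range contained the WT range except for WT replicate 4, and both CD25lo libraries were below all other libraries. In bulk samples, fewer cycling cells and less RNA per cell cannot be told apart.

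Other features of the libraries were set beside these sums. The mean log2 level of 23 immediate early genes, which respond within minutes to stimulation or handling, was 12.43, 12.60, 12.90, 13.40 and 13.70 in cKO replicates 1 to 5, in the same order as their replication sums. In the WT libraries it was 13.72, 13.48, 13.70 and 11.81, and the library with the lowest value, WT replicate 4, also had the lowest replication sum of that group. The 12 myeloid markers summed to 352.4 to 3714.6 normalized counts in cKO and 925.9 to 6102.8 in WT Tregs, and 8 of the 10 tested were negative in cKO with 0 called. Csf1r reached 3159.2 in WT replicate 1 and 2126.4 in cKO replicate 4. S100a8 and S100a9 were at 0 in all cKO libraries and in most WT libraries. The exceptions were S100a8 at 40.1 in WT replicate 4 and S100a9 at 10.4 in WT replicate 1. The 9 B cell and plasma cell markers summed to 633.3 to 944 in cKO and 226 to 884.2 in WT Tregs. Of the 7 of these that were tested, 5 were positive and 2 negative in cKO, with 0 called. The part of these features in the cKO comparison was not tested beyond the fit with the immediate early level as a term, in which Orc1 was called and Cdt1 was not (log2 fold change 0.39, adjusted p = 0.0526).

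**Figure D5:**
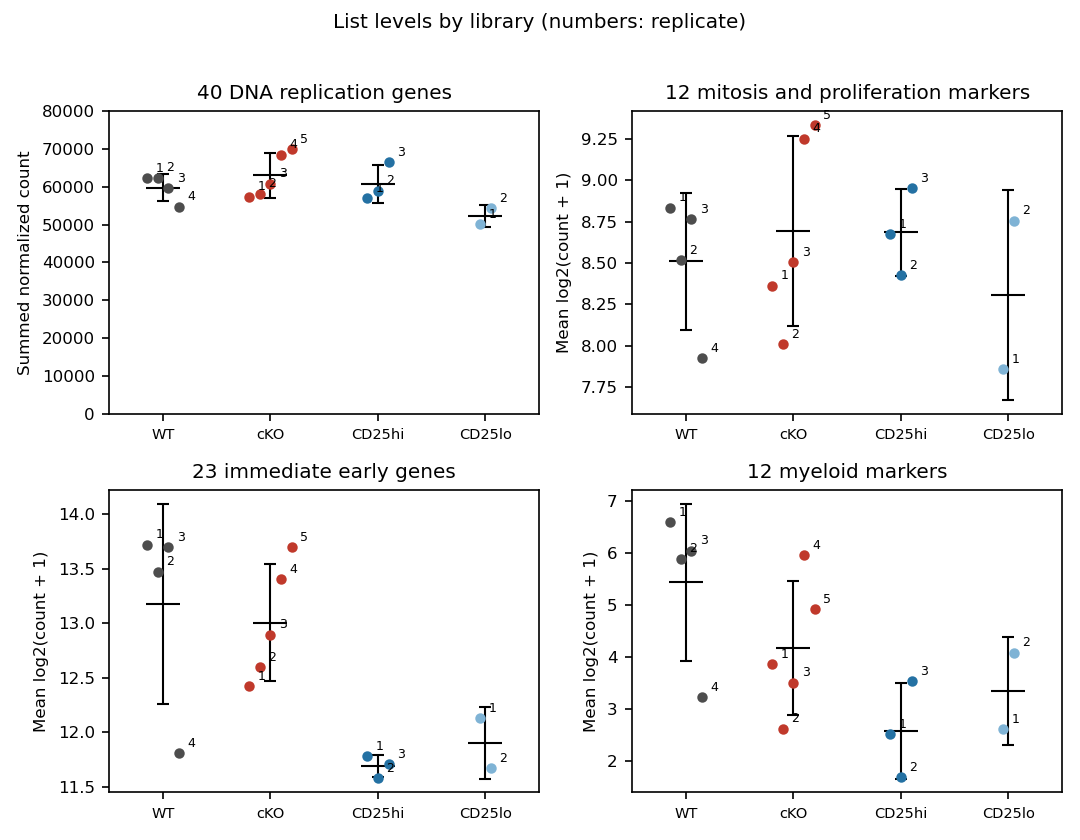
List levels in each library by group, with the replicate number beside each dot and the mean and SD as bars: the summed normalized count of the 40 replication genes, and the mean log2(normalized count + 1) of the mitosis, immediate early and myeloid lists. cKO replicates 4 and 5 have the highest replication sums (68500 and 69992) and the highest mitosis levels (9.25 and 9.33), and both CD25lo sums (50188 and 54334) are the lowest.

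In the sorted Tregs the immediate early level was 11.78, 11.58 and 11.71 in CD25hi replicates 1 to 3. It was 12.13 and 11.67 in CD25lo replicates 1 and 2. Neither sorted group followed the order of its replication sums, and CD25lo replicate 1 had the higher level but the lower sum. The 6 CD8 T and NK cell markers summed to 450.2 to 797.3 normalized counts in CD25hi and 842 to 854.9 in CD25lo Tregs, and all 5 that were tested were positive in CD25lo with 0 called. Of these, Klrd1 was at 2.8, 0 and 0 in CD25hi and 128.2 and 31.3 in CD25lo Tregs, and Ncr1 was at 0 in both CD25lo libraries. The 12 myeloid markers summed to 291.9 to 704.6 in CD25hi and to 535.5 and 1190.9 in CD25lo Tregs, and of the 10 tested 7 were positive in CD25lo and 1 negative (median 0.96), with 0 called. Tyrobp was at 1.9, 0 and 16.4 in CD25hi and at 67.3 and 60.6 in CD25lo Tregs, and S100a8 was at 0 in all sorted libraries. The part of these markers, and of the lower Foxp3 and Ikzf2, in the lower replication levels was not tested.

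Outside the 40 genes, 49 further genes of firing and fork stability, polymerase and repair subunits, nucleotide supply and chromatin assembly behind the fork were followed, and 0 of 49 were called by limma in either comparison. In CD25lo Tregs 37 were negative and 12 positive, with a median of -0.21. At an unadjusted p under 0.05, 12 were lower and 1 higher, against 6.95% of all genes tested lower and 6.51% higher. DESeq2 called Chtf18 and Rnaseh2b as lower there (4.61% of the 14605 genes with an adjusted p), and edgeR called 0 (1.37% of all genes tested). These are named after their values were seen. Chtf18, part of an alternative clamp loader, was at 265.5, 189.5 and 459.1 normalized counts in CD25hi and at 46.4 and 140.3 in CD25lo Tregs, and differed by -1.80 ± 0.49 (SE) on the log2 scale (limma, adjusted p = 0.0764). In cKO Tregs 25 of the 49 were positive and 24 negative, with a median of 0.02. At an unadjusted p under 0.05 there were 3 in each direction, against 9.57% of all genes tested higher and 6.56% lower. DESeq2 and edgeR called 0 of the 49 in that comparison.

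The 12 mitosis and proliferation markers, such as Mki67 and Top2a, act after replication or mark cycling cells in general. None passed the test in limma, edgeR or DESeq2 in either comparison. In CD25lo Tregs 9 were negative and 3 positive (median -0.33). At an unadjusted p under 0.05, 2 were lower and 0 higher (6.95% and 6.51% of all genes tested). The mean log2 level of the 12 markers was 7.86 and 8.76 in the CD25lo libraries and 8.43 to 8.95 in CD25hi Tregs. In cKO Tregs 5 were positive and 7 negative (median -0.06). At an unadjusted p under 0.05, 1 was higher and 0 lower (9.57% and 6.56% of all genes tested). The mean log2 level of the markers was 9.25 and 9.33 in cKO replicates 4 and 5, 8.01 to 8.51 in the other cKO libraries and 7.93 to 8.83 in WT Tregs.

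The genes with sequence matches were compared as a description. The 7 genes with a seed match had a median log2 fold change of 0.18 in cKO Tregs, with 6 positive and 1 negative, and the 33 genes without one had a median of 0.06, with 23 positive and 10 negative. None of the 7 was called in cKO Tregs. Between the sorted groups, which were both WT, the 7 genes had a median of -0.13, with 2 positive and 5 negative. The 33 genes without a match had a median of -0.29 there, with 6 positive and 27 negative. Genes with a match thus had the higher median in both comparisons. The 13 genes with an E2F motif had a median of -0.38 in CD25lo Tregs, with 11 negative and 2 positive, and the 19 other genes with a listed promoter had a median of -0.24, with 16 negative and 3 positive. In cKO Tregs the 13 genes with a motif had a median of 0.17, with 10 positive and 3 negative. The 19 others had a median of 0.03 there, with 13 positive and 6 negative. Mcm10 was among the genes without a motif in its window. A link between the sequence matches and these medians was not tested.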

How the data were processed

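RNA-seq of sorted mouse Tregs was analysed in 14 libraries grouped by their labels. Per the labels and the methods of the study, the authors used STAR 2.7.2b to align single-end 50-base reads to GRCm38, and they deposited normalized counts, a signal per gene made by dividing reads by a DESeq2 1.24.0 size factor. The authors also deposited stabilized log2 values, the GC percent of genes, and their own fold changes (log2 and ratio) and p-values, and none of these were used. Of 55536 rows, 7173 have no values. Whole reads could be recovered for 100% of values (within 0.055), and total 30055573 to 35226685 per library.

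The group means were fitted to log2(normalized count + 1) with limma-trend (limma 3.58.1, R 4.3.3), two-sided, over the 16241 genes that reached 10 normalized counts in 2 or more libraries. Calls were made where the adjusted p (Benjamini-Hochberg, all genes tested) was under 0.05. Over all genes limma called 572, 263 and 168 in the cKO, CD25lo and difference tests, edgeR (4.0.16, TMM, recovered reads) 521, 223 and 175, and DESeq2 (1.42.0) 898, 674 and 565. The scripts were tested on simulated counts. Replicates are separate samples by their labels. The p-values use a spread for each gene that is shared by all groups of the 14 libraries. Those of the CD25lo comparison therefore also rest on the spread among the bulk libraries. Whether CD25hi and CD25lo libraries share mice is not known.

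The 40 genes, the lists and the tests were chosen with earlier results of these data known. Values in every library are given for genes called and for the gene with the smallest adjusted p of each other role. Other genes are given by range, and those named singly beyond the rule were chosen after their values were seen. Alternatives were other tools, filters, pseudocounts, terms for sex or immediate early genes, a replicate block, the groups compared alone, and each library left out. Lengths, 3′ UTRs and exon overlaps came from GENCODE vM21.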

Additional observations from a re-analysis of the deposited data

Results flagged for a closer look

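Among the 40 genes and their summed level, in WT and cKO Tregs, 1 of 82 groups held a library that stood far from the others, and chance alone gives about 1 in 20. Orc4, a subunit of the origin recognition complex, was at 1484.3 normalized counts in cKO replicate 2 and at 1229.8 to 1287.7 in the other 4 cKO libraries. The gap to the nearest library was 0.772 of the whole range. No cause was tested.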

How the results depend on the processing

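The median log2 fold change of the 40 genes kept its direction in both comparisons under each alternative tried. It ran from 0.0397 to 0.143 in cKO and from -0.384 to -0.17 in CD25lo Tregs with each library left out in turn, and was 0.222 in cKO Tregs when only cKO replicates 4 and 5 and WT replicates 1 to 3 were compared. That setting was chosen after seeing the data, and it keeps the 2 cKO libraries with the highest replication sums, so its size was in part set by the choice.

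The counts of called genes changed more. In cKO Tregs the count was 0, and it was 1 with DESeq2, with the immediate early level as a term and in a fit of only the groups compared, 4 at an unadjusted p, and 0 to 1 with each library left out (1 without CD25hi replicate 2). In CD25lo Tregs it was 1, and it was 5 with DESeq2, 4 with the immediate early level as a term, 0 in a fit of only the groups compared (which called 0 genes in all), 16 at an unadjusted p, and 0 to 2 with each library left out. For the difference of the effects it was 0, and it was 3 with DESeq2, 3 with the immediate early level as a term, 14 at an unadjusted p, 0 to 1 with each library left out (1 without CD25hi replicate 2) and 1 with only cKO replicates 4 and 5 and WT replicates 1 to 3. Without CD25hi replicate 2 and WT replicate 2 together, chosen after seeing the data as the libraries with the fewest genes, the counts were 1, 2 and 1. The cause of these changes was not tested.

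It is not known whether libraries with the same replicate number are paired. The correlation of their deviations from the group means was -0.43 to -0.24 for cKO and WT Tregs and 0.14 and -0.03 for the sorted groups. These values cannot decide it, because the 2 CD25lo deviations mirror each other and libraries with unlike numbers were not compared. With the replicate number as a block, 0 genes were called in each comparison, and Mcm10 differed by -2.06 in CD25lo Tregs (adjusted p = 0.265). Groups of 2 and 3 libraries limit the CD25lo comparison: the 95% interval lay within 2-fold for 24 of the 40 genes and crossed that bound for the others. With sex as a term, cKO Tregs are compared with WT replicate 3 alone, the 1 female WT library.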
